A study of Homo sapiens with 6 samples.

Results

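Glucose enters a cell through transporters, is broken down to pyruvate by glycolysis, and leaves the pathway either as lactate or as acetyl-CoA made in the mitochondrion. The 38 genes described here cover that route in cultured human colon epithelial cells, out of 24462 gene symbols in the count files. They were chosen by name, as 6 glucose transporters, the enzymes of glycolysis with the enzymes that set fructose 2,6-bisphosphate, lactate dehydrogenase and the lactate transporters, the pyruvate dehydrogenase enzyme with its kinases and a phosphatase, and the mitochondrial pyruvate carrier. All 38 symbols were found in every library.

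As background, the commitment of glucose to glycolysis is set at hexokinase, which traps glucose as glucose 6-phosphate, at phosphofructokinase and at pyruvate kinase. Lactate dehydrogenase then turns pyruvate into lactate and returns NAD+ to glycolysis, and proton-coupled transporters carry the lactate across the membrane. The mitochondrial pyruvate carrier and pyruvate dehydrogenase feed the competing branch, and the pyruvate dehydrogenase kinases switch that enzyme off by phosphorylation. In the gut, lowered entry of pyruvate into mitochondria and raised lactate production are known features of dividing stem-like cells and of many colon tumours.

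The bulk RNA-seq part of the study set 3 libraries of 1CT against 3 libraries of 1CT-A. 1CT is a line of human colon epithelial cells, made immortal and wild type for APC, and 1CT-A is its version with APC knocked down. APC is the tumour suppressor that holds β-catenin levels down and is the gene most often lost at the start of colorectal cancer. Both lines grew without further treatment in the same medium, a mixture of DMEM and M199 with EGF, hydrocortisone, insulin, selenite, transferrin and serum at 2%. 1CT-A came to the study as an established line next to 1CT, so differences between the lines may include more than the loss of APC, and no library of 1CT with a control hairpin was used here. The sources do not say whether 1CT-A is a clone or whether the replicates were separate cultures, so the p-values measure the spread between these samples, which may be technical. The libraries are bulk, so a lower level per cell cannot be told apart from fewer cells with the transcript.

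The libraries held 7788679 to 8452258 counts in 1CT and 11158108 to 12602988 in 1CT-A. Levels are given as CPM, the counts of a gene scaled to a library of 1000000 counts. A level of 3 counts, used as the limit of what could be seen, lies between 0.355 and 0.385 CPM for 1CT libraries and between 0.238 and 0.269 CPM for 1CT-A libraries. APC had 49.3, 43.8 and 46.6 CPM in 1CT and 31.5, 30.0 and 34.4 CPM in 1CT-A, with no overlap (log2 fold change -0.58, SE 0.09, adjusted p = 1.76e-04 in edgeR's quasi-likelihood test), which is the direction of the labels. Of 6 epithelial markers only KRT18 and KRT19 were high enough to be tested, and both were lower in 1CT-A, although KRT19 met the filter through 1CT alone. EPCAM had no count in any library. None of 10 intestinal and colonic markers had more than 2 counts in a library, so markers that define colonic epithelium were at or near 0 in both lines. Of 7 mesenchymal markers all were tested, 4 were lower and 1 was higher in 1CT-A, and FN1 alone had 45204, 47281 and 40237 CPM in 1CT and 19040.2, 17421 and 17921 CPM in 1CT-A. The summed level of the epithelial list was between 13.5 and 17.5 CPM in 1CT libraries and between 3.32 and 7.28 CPM in 1CT-A libraries, and that of the mesenchymal list between 44526 and 52636 CPM and between 21798 and 23225 CPM. FN1 made up most of the mesenchymal sum, so that sum does not describe the other markers. COL3A1, the marker called higher, had 45.2, 66.8 and 31.5 CPM in 1CT and 240, 269 and 251 CPM in 1CT-A. These marker lists moved with the cell lines as the genes below do, and their part in the results was not tested. No immune or endothelial marker was high enough to be tested. The 399 olfactory receptor symbols, which colon cells should lack, averaged per gene between 0.0348 and 0.0450 CPM in 1CT libraries and between 0.0139 and 0.0155 CPM in 1CT-A libraries. Their summed level was 15.8 CPM on average in 1CT and 5.93 CPM in 1CT-A, so this low-level background was higher in 1CT. Among all tested genes with a mean under 10 CPM, the median log2 fold change was -0.22. The part of this background in the falls of low members described below was not tested.

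The glycolytic genes as a group took 0.884% to 1.03% of the counts of 1CT libraries and 0.923% to 1.03% of those of 1CT-A libraries, ranges that overlap. Within that share single genes moved in both directions. Of the 36 members that passed the filter on low counts, 8 were higher in 1CT-A and 10 were lower at an adjusted p under 0.05, and 18 did not pass the test. Across all 12514 genes tested, 25.0% were called higher and 26.0% lower, shares close to 8 and 10 of 36. At least 2-fold changes were found for 1 member upward, HK2, and for 5 downward, against 4.00% upward and 9.92% downward among all genes. Of those 5, PFKFB2, PDK2 and PDK3 reached the filter, which asks for 3 libraries, only through the 1CT libraries. A difference was thus built into their being tested. Of the 1CT-A libraries, 1 passed for PFKFB2, 1 for PDK2 and 0 for PDK3. PFKFB1 and ENO3 were not tested. The libraries of the lines did not overlap for 21 members, compared with 59.7% of all genes. The median log2 fold change of the tested members was -0.06, and that of all genes was -0.01.

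**Figure D1:**
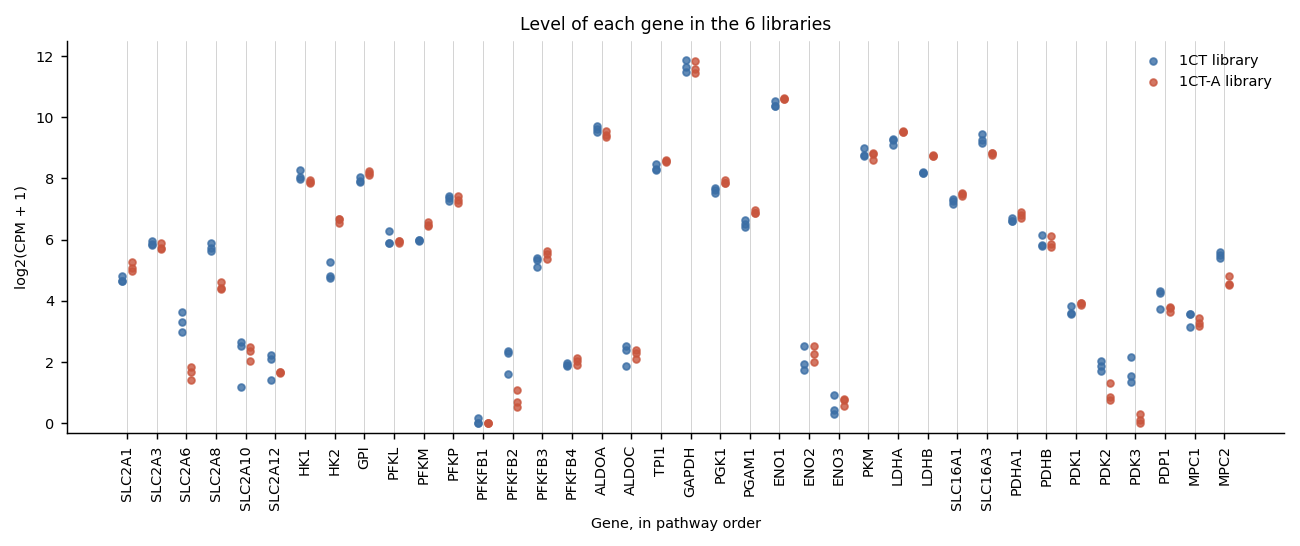
Level of the 38 genes in each of the 6 libraries, in pathway order, as log2(CPM + 1). Each point is a library, blue for 1CT and red for 1CT-A. GAPDH and ENO1 sit at the top in both lines, and HK2 is the gene whose red points lie furthest above the blue ones. SLC2A6, SLC2A8, HK1, PFKFB2, SLC16A3, PDK2, PDK3 and MPC2 have all red points below all blue ones.

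Members were also read by level. Among the 26 members with a mean of at least 10 CPM, 8 were higher in 1CT-A, 6 were lower and 12 did not pass, compared with 31.4% higher and 23.4% lower among all genes of that level. Among the 12 members under 10 CPM, none was higher, 4 were lower, 6 did not pass and 2 were not tested, where 12.7% of all genes were higher and 31.0% lower. All 8 rises lay in the upper of these level classes. Of the 4 low members that fell, 3 were PFKFB2, PDK2 and PDK3, which reached the filter only through 1CT.

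**Figure D2:**
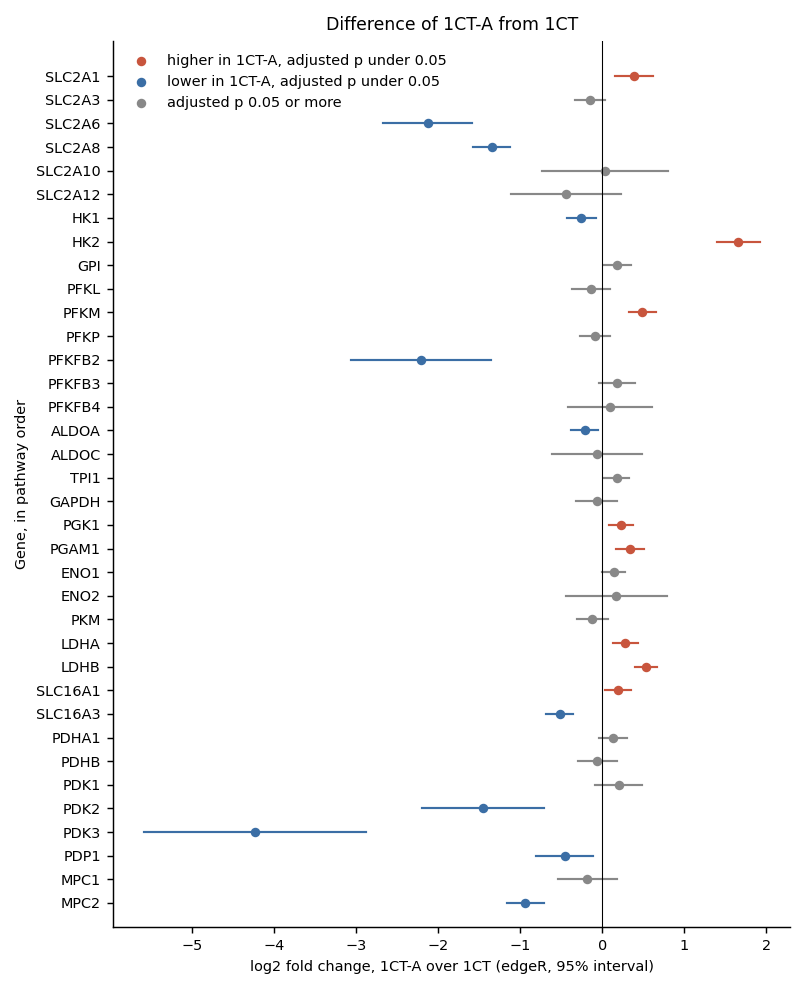
Log2 fold change of 1CT-A over 1CT for the 36 tested members, with the 95% interval of the edgeR fit, in pathway order. Red points are the 8 members called higher, blue points the 10 called lower and grey points the 18 with an adjusted p of 0.05 or more. HK2 at 1.66 is the point furthest right and PDK3 at -4.23 the point furthest left, with the widest interval.

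Glucose transporters changed in opposite directions. SLC2A1, which encodes GLUT1, the basal glucose transporter of most proliferating cells, had 24.0, 27.2 and 24.1 CPM in 1CT and 30.6, 37.7 and 32.9 CPM in 1CT-A. All 1CT-A libraries were above all 1CT libraries, and the rise of 1.31-fold passed the test (log2 fold change 0.39, SE 0.11, adjusted p = 0.00787). SLC2A3, which encodes the high-affinity transporter GLUT3, had 57.1, 61.0 and 55.7 CPM in 1CT and 52.2, 57.8 and 50.3 CPM in 1CT-A, overlapping between the lines (log2 fold change -0.16, 95% interval -0.34 to 0.027, adjusted p = 0.140). SLC2A8 encodes GLUT8, a transporter held mainly on internal membranes. It had 48.9, 52.5 and 57.9 CPM in 1CT and 20.6, 20.0 and 23.4 CPM in 1CT-A and fell 2.55-fold (log2 fold change -1.35, SE 0.10, adjusted p = 3.28e-07). SLC2A6, for GLUT6 on lysosomal membranes, had 8.99, 7.00 and 11.6 CPM in 1CT and 2.60, 2.19 and 1.67 CPM in 1CT-A and fell 4.38-fold (log2 fold change -2.13, SE 0.25, adjusted p = 1.48e-05). In SLC2A6 and SLC2A8 the lowest 1CT library was above the highest 1CT-A library.

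The remaining transporters were low. SLC2A10 had 5.32, 4.71 and 1.28 CPM in 1CT and 3.14, 4.13 and 4.68 CPM in 1CT-A, and its log2 fold change of 0.032 (adjusted p = 0.947, edgeR) turned to -0.35 without 1CT replicate 3, to -0.10 without 1CT-A replicate 3 and to -0.022 with upper-quartile scaling, so no direction can be given. SLC2A12 had 1.66, 3.74 and 3.34 CPM in 1CT and 2.15, 2.19 and 2.22 CPM in 1CT-A (log2 fold change -0.44, 95% interval -1.12 to 0.23, adjusted p = 0.255). Without 1CT replicate 1, its lowest 1CT library, SLC2A12 was called lower (log2 fold change -0.73, adjusted p = 0.0480 in edgeR). Summed over the 6 transporters, the level was 146, 156 and 154 CPM in 1CT and 111, 124 and 115 CPM in 1CT-A, a ratio of 0.769 with no overlap. The share of SLC2A1 in these transporter counts went from 16.5% ± 0.862 (SD, n = 3) to 28.8% ± 1.48, while that of SLC2A8 went from 34.9% ± 2.35 to 18.3% ± 2.10. The log2 ratio of SLC2A3 to SLC2A1 within a library differed by -0.54 (1CT-A minus 1CT, exact permutation p = 0.1, two-sided, the smallest that 3 against 3 libraries allow). SLC2A14, a near copy of SLC2A3, had 1.06, 1.33 and 1.67 CPM in 1CT and 0.986, 1.76 and 1.03 CPM in 1CT-A.

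The strongest rise among the 38 genes was that of a single hexokinase gene. HK2, the inducible hexokinase that binds mitochondria and is low in most adult tissues, had 26.1, 37.9 and 27.0 CPM in 1CT and 93.2, 101 and 101 CPM in 1CT-A. Every 1CT-A library was above every 1CT library, and HK2 rose 3.16-fold (log2 fold change 1.66, SE 0.12, adjusted p = 1.97e-07). HK1, the hexokinase of most tissues, had 264, 254 and 309 CPM in 1CT and 236, 244 and 231 CPM in 1CT-A. It fell slightly (log2 fold change -0.26, SE 0.08, adjusted p = 0.0196), but the call was lost without 1CT-A replicate 1 (adjusted p = 0.0536) and without 1CT-A replicate 3 (adjusted p = 0.0884, edgeR). HK2 made up 10.0% ± 2.64 (SD, n = 3) of the counts of HK1 and HK2 in 1CT and 29.3% ± 1.10 in 1CT-A. The log2 ratio of HK2 to HK1 was higher in 1CT-A by 1.93 (exact permutation p = 0.1, two-sided). The sum of both genes hardly moved, with 290.5, 292 and 336 CPM in 1CT and 329.6, 345 and 332 CPM in 1CT-A, a ratio of 1.10 with overlap between the lines. A further hexokinase-type enzyme, HKDC1, had 2.48, 2.41 and 1.93 CPM in 1CT and 2.42, 2.63 and 3.09 CPM in 1CT-A and did not pass the test (adjusted p = 0.518, edgeR), and HK3 had no count.

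The promoter windows of HK2, SLC2A6 and SLC2A8 are shown because these genes had the largest changes among members above the limit of the filter in both lines. Each window is the 250 bases before the most upstream transcript start of the gene in the RefSeq table on GRCh38.p14, given 5′ to 3′ on the gene's strand. Capitals mark ACGTG or its reverse complement CACGT, the core of the hypoxia response element.
HK2 (chr2:74833877-74834126, plus strand): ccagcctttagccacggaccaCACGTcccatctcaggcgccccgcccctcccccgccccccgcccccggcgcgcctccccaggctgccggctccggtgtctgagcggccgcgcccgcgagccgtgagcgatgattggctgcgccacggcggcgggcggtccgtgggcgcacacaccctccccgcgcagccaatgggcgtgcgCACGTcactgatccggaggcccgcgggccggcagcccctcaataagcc
SLC2A6 (chr9:133479100-133479349, minus strand): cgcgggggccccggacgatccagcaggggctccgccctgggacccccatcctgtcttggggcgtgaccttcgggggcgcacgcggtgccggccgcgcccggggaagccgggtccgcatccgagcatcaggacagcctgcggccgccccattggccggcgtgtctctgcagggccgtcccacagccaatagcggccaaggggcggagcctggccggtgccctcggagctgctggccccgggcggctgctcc
SLC2A8 (chr9:127396919-127397168, plus strand): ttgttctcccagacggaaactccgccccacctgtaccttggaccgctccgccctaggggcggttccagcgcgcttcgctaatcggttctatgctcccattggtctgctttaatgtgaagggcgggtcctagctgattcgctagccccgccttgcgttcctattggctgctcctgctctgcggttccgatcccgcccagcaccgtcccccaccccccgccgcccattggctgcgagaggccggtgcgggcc
The HK2 window held 2 matches to ACGTG or CACGT, and the windows of SLC2A6 and SLC2A8 held none. The G and C content was 76.8% for HK2 and SLC2A6 and 65.2% for SLC2A8. Windows of the same 250 bases were searched for the 34 of 38 members that matched, 66 windows in all. ACGTG, searched on both strands, was in 21 of the 66 windows and in at least 1 window of 18 members (52.9%), against 18.5% of 35116 windows and 21.7% of 27305 genes of the table. CACGTG, the E-box of MYC and related factors, which contains ACGTG, was found in 8 members (23.5%) and in 7.73% of all genes. CTTTGAT, a form of the TCF/LEF site of Wnt signalling, was in no member and in 2.75% of all genes. Members had more windows per gene than the table as a whole, so the shares by gene favour a match in members. The genes of the table were also not matched to the members for level or for G and C content, so the shares cannot be compared as like with like. A match describes letters in a window and not a bound site. Of the 18 members with ACGTG, 4 were higher, 4 lower and 10 did not pass the test. Of the 16 without it, 3 were higher, 4 lower, 7 did not pass and 2 were not tested.

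At glucose 6-phosphate isomerase, GPI had 243, 235 and 266 CPM in 1CT and 304, 273 and 289.8 CPM in 1CT-A. The lines did not overlap, but GPI did not pass the threshold (log2 fold change 0.18, 95% interval 0.018 to 0.34, adjusted p = 0.0611). Phosphofructokinase is a tetramer of liver-type, muscle-type and platelet-type subunits. The muscle-type subunit gene PFKM rose, with 62.2, 62.5 and 61.6 CPM in 1CT and 85.9, 95.2 and 87.5 CPM in 1CT-A and no overlap (log2 fold change 0.49, SE 0.08, adjusted p = 1.61e-04). The platelet-type gene PFKP had 164, 152 and 172 CPM in 1CT and 173, 144 and 155 CPM in 1CT-A, and the liver-type gene PFKL had 58.0, 58.9 and 76.5 CPM in 1CT and 61.0, 60.9 and 58.5 CPM in 1CT-A. Neither passed the test in edgeR, with a log2 fold change of -0.086 for PFKP (95% interval -0.27 to 0.10, adjusted p = 0.424) and of -0.14 for PFKL (95% interval -0.37 to 0.094, adjusted p = 0.304). Without 1CT replicate 3, its highest library, the PFKL value was 0.018. PFKM made up 21.6% ± 1.51 (SD, n = 3) of phosphofructokinase counts in 1CT and 29.2% ± 2.40 in 1CT-A, and the log2 ratio of PFKM to PFKL was higher in 1CT-A by 0.61 (exact permutation p = 0.1, two-sided). The sum of the subunits was 284, 274 and 309.9 CPM in 1CT and 319.7, 301 and 301 CPM in 1CT-A. PFKM shares exon sequence with SENP1 on the opposite strand in GENCODE 44, and SENP1 had 96, 102 and 72 reads in 1CT and 203, 170 and 231 reads in 1CT-A. These reads are not scaled to the larger 1CT-A libraries. The strand setting of the counting is not given, so reads of the pair cannot be told apart.

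The PFKFB genes encode enzymes that make and remove fructose 2,6-bisphosphate, the strongest activator of phosphofructokinase. PFKFB3, the form with the highest kinase activity, had 33.7, 41.5 and 39.7 CPM in 1CT and 40.5, 45.1 and 48.2 CPM in 1CT-A. Its ranges overlapped and it did not pass the test (log2 fold change 0.18, 95% interval -0.040 to 0.40, adjusted p = 0.155, edgeR). PFKFB2 had 3.90, 2.05 and 4.11 CPM in 1CT and 0.448, 0.614 and 1.11 CPM in 1CT-A, so every 1CT-A library was below every 1CT library (log2 fold change -2.21, SE 0.39, adjusted p = 4.58e-04), and only 1 of 3 1CT-A libraries met the filter. PFKFB4 had 2.96, 2.78 and 2.70 CPM in 1CT and 2.78, 3.07 and 3.41 CPM in 1CT-A with overlap (log2 fold change 0.10, 95% interval -0.41 to 0.61, adjusted p = 0.750). PFKFB1 had 1 count in all 1CT libraries together and none in 1CT-A, where 3 counts would be the limit of detection. The log2 ratio of PFKFB3 to PFKFB2 was higher in 1CT-A by 2.40 (exact permutation p = 0.1, two-sided), and that of PFKFB4 to PFKFB3 differed by -0.10 (exact p = 0.9).

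In the steps from fructose 1,6-bisphosphate to pyruvate the summed level of a step in 1CT-A lay between 0.885 times that of 1CT, for aldolase, and 1.30 times, for phosphoglycerate mutase. Aldolase splits the sugar into triose phosphates, and its main gene ALDOA had 777, 733 and 845 CPM in 1CT and 748, 652 and 682 CPM in 1CT-A. It was called lower (log2 fold change -0.22, SE 0.08, adjusted p = 0.0331), with the lowest 1CT library below the highest 1CT-A library. The ALDOA call was lost without 1CT replicate 1, 1CT replicate 3, 1CT-A replicate 2 or 1CT-A replicate 3 (adjusted p of 0.0623, 0.0746, 0.156 and 0.123, edgeR) and with library size scaling (0.0557). ALDOC, the brain form, had 4.26, 2.66 and 4.75 CPM in 1CT and 4.21, 3.34 and 3.89 CPM in 1CT-A (log2 fold change -0.064, 95% interval -0.61 to 0.48, adjusted p = 0.848), and its sign turned when single libraries were left out. TPI1, which interconverts the triose phosphates, had 311, 319.6 and 356 CPM in 1CT and 375, 389.5 and 379 CPM in 1CT-A, without overlap but past the threshold only in some settings (log2 fold change 0.17, 95% interval 0.018 to 0.33, adjusted p = 0.0593). TPI1 and GPI were called higher without 1CT replicate 3, with adjusted p of 0.00143 and 0.00421 (edgeR).

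GAPDH, the dehydrogenase often used as a reference gene, had the most counts of the members, with 3181, 2824 and 3723 CPM in 1CT and 3698, 2761 and 3057 CPM in 1CT-A. The libraries of a line differed more than the lines did (log2 fold change -0.071, 95% interval -0.32 to 0.18, adjusted p = 0.632). Without 1CT replicate 3 the value was 0.058 and without 1CT-A replicate 2 it was 0.029, so no direction can be given. PGK1, the first ATP-producing enzyme, had 197, 206 and 183 CPM in 1CT and 228, 246 and 232 CPM in 1CT-A and rose (log2 fold change 0.23, SE 0.07, adjusted p = 0.0135). The call was lost without 1CT-A replicate 2 (adjusted p = 0.0595) and with upper-quartile scaling (adjusted p = 0.0514, edgeR). PGAM1, the phosphoglycerate mutase, had 99.3, 91.3 and 84.9 CPM in 1CT and 116, 124 and 117 CPM in 1CT-A and rose 1.26-fold without overlap (log2 fold change 0.33, SE 0.08, adjusted p = 0.00291). PGAM4, a retrocopy nearly identical to PGAM1, had 29.5, 33.0 and 29.5 CPM in 1CT and 39.4, 41.6 and 44.1 CPM in 1CT-A. Reads can be split between such copies, so the level of either gene is uncertain, although both were higher in 1CT-A. Symbols of PGAM1 and TPI1 pseudogenes had at most 0.355% and 0.209% of the reads of their gene in a library.

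ENO1, the enolase of most tissues, had 1327, 1332 and 1479 CPM in 1CT and 1553, 1547 and 1582 CPM in 1CT-A. The lines did not overlap, but ENO1 did not pass (log2 fold change 0.14, 95% interval -0.0032 to 0.28, adjusted p = 0.0945). Without 1CT replicate 3, its highest 1CT library, ENO1 was called higher (log2 fold change 0.21, adjusted p = 0.00270 in edgeR). ENO2, the neuronal form, had 2.37, 4.83 and 2.82 CPM in 1CT and 3.05, 4.74 and 3.81 CPM in 1CT-A with overlap (log2 fold change 0.17, 95% interval -0.45 to 0.79, adjusted p = 0.644), and turned to -0.032 without 1CT replicate 1. ENO3, the muscle form, had 0.237, 0.362 and 0.899 CPM in 1CT and 0.717, 0.702 and 0.476 CPM in 1CT-A and was not tested. PKM, the pyruvate kinase whose splice forms are not separated in these files, had 424, 432 and 506 CPM in 1CT and 452, 389.6 and 442 CPM in 1CT-A with overlap (log2 fold change -0.12, 95% interval -0.31 to 0.064, adjusted p = 0.253).

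**Figure D3:**
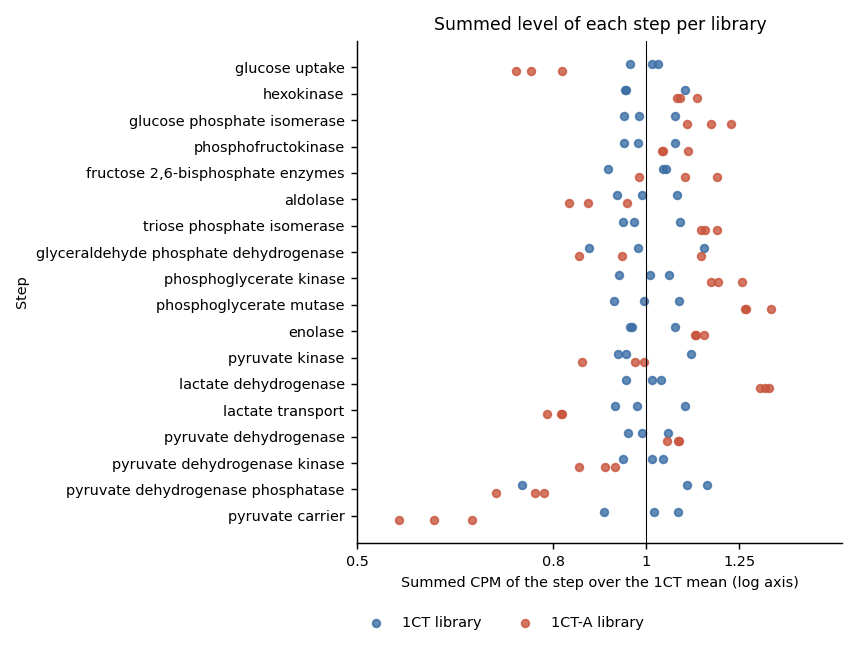
Summed CPM of the genes of each step in each library, divided by the mean of the 3 1CT libraries, on a log axis. Blue points are 1CT libraries and red points 1CT-A libraries, and the line marks the 1CT mean. Lactate dehydrogenase and phosphoglycerate mutase lie to the right in all 1CT-A libraries, with ratios of 1.33 and 1.30, and the pyruvate carrier, glucose uptake and lactate transport lie to the left, with ratios of 0.604, 0.769 and 0.806.

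Lactate dehydrogenase was higher in 1CT-A through both of its subunit genes. LDHA, which favours the making of lactate, had 543, 622 and 605 CPM in 1CT and 749.5, 726 and 735 CPM in 1CT-A (log2 fold change 0.28, SE 0.07, adjusted p = 0.00384). LDHB, which favours the use of lactate, had 294, 288 and 287 CPM in 1CT and 429.6, 429 and 433 CPM in 1CT-A (log2 fold change 0.53, SE 0.06, adjusted p = 1.08e-05). Neither gene overlapped between the lines, and the LDHB libraries of a line lay close together. The rise was 1.22-fold for LDHA and 1.45-fold for LDHB, so the share of LDHB in the counts of both went from 33.0% ± 1.84 (SD, n = 3) to 36.9% ± 0.398. The log2 ratio of LDHB to LDHA was higher in 1CT-A by 0.25 (exact permutation p = 0.1, two-sided). The sum of LDHA and LDHB was 837, 909.9 and 891 CPM in 1CT and 1179, 1155 and 1167 CPM in 1CT-A, a ratio of 1.33.

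The lactate transporters moved apart. SLC16A3 encodes MCT4, the low-affinity exporter of strongly glycolytic cells. It had 606, 577 and 692 CPM in 1CT and 453, 452 and 439 CPM in 1CT-A and fell 1.43-fold (log2 fold change -0.52, SE 0.08, adjusted p = 9.87e-05), with all 1CT-A libraries below all 1CT libraries. SLC16A1, for MCT1, which carries lactate in either direction, had 154, 143 and 159.7 CPM in 1CT and 179.9, 183 and 173 CPM in 1CT-A and was called higher (log2 fold change 0.19, SE 0.07, adjusted p = 0.0413). When single libraries were left out, the SLC16A1 call held only without 1CT replicate 3 (adjusted p = 0.00498). It was lost without 1CT replicates 1 and 2 (adjusted p of 0.0842 and 0.143) and without 1CT-A replicates 1, 2 and 3 (0.102, 0.109 and 0.0661, edgeR). The call was also lost with upper-quartile scaling (0.155), with at least 10 counts in every library (0.0569) and with a replicate block (0.0766, edgeR). It held with library size scaling, without the filter, in DESeq2 and in limma-voom. The share of SLC16A1 in the counts of both transporters went from 19.6% ± 0.770 (SD, n = 3) to 28.5% ± 0.278, and the log2 ratio of SLC16A1 to SLC16A3 was higher in 1CT-A by 0.71 (exact permutation p = 0.1, two-sided). Their sum was 759.9, 720.5 and 852 CPM in 1CT and 633, 634 and 612 CPM in 1CT-A. SLC16A7, for MCT2, a high-affinity importer of lactate and pyruvate outside the 38 genes, had 8.99, 9.18 and 9.37 CPM in 1CT and 22.9, 23.8 and 21.7 CPM in 1CT-A and rose 2.42-fold (log2 fold change 1.27, SE 0.12, adjusted p = 2.07e-06). It was the only gene of the neighbouring lists with at least a 2-fold change and a mean of at least 10 CPM.

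MCT proteins need a partner at the membrane. BSG, for basigin, the partner of MCT1 and MCT4, had 62.0, 58.6 and 69.1 CPM in 1CT and 50.2, 53.7 and 58.6 CPM in 1CT-A and was called lower (log2 fold change -0.26, SE 0.09, adjusted p = 0.0323). EMB, for embigin, the preferred partner of MCT2, had 109, 83 and 55 reads in 1CT and 0, 1 and 0 reads in 1CT-A, 247 reads against 1 over all libraries of a line. The ratio of the CPM was 354 with an exact 95% counting interval of 63.0 to 14041. EMB is named for its values, after they were seen, and met the filter through 1CT alone.

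**Figure D4:**
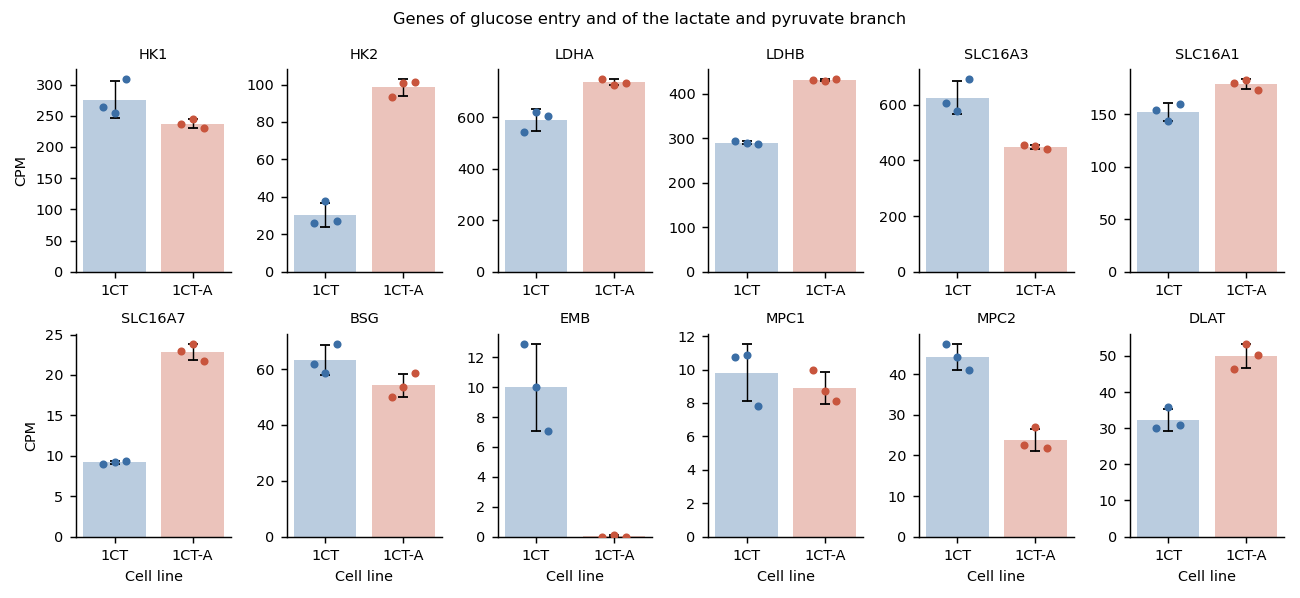
CPM of hexokinase, lactate and pyruvate branch genes in 1CT (blue) and 1CT-A (red), on linear axes that start at 0. Bars are means, error bars the SD over 3 libraries and points the libraries. HK2, LDHA, LDHB, SLC16A1, SLC16A7 and DLAT are higher in every 1CT-A library than in any 1CT library. HK1, SLC16A3, MPC2, EMB and, by a very small margin, BSG are lower in every 1CT-A library, while the MPC1 points overlap.

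On the mitochondrial branch the pyruvate carrier fell in 1 of its subunit genes. The carrier is a dimer of MPC1 and MPC2. MPC2 had 47.6, 44.2 and 41.1 CPM in 1CT and 22.6, 26.9 and 21.8 CPM in 1CT-A and fell 1.91-fold without overlap (log2 fold change -0.94, SE 0.10, adjusted p = 8.44e-06). MPC1 had 10.8, 10.9 and 7.83 CPM in 1CT and 9.95, 8.69 and 8.09 CPM in 1CT-A with overlap (log2 fold change -0.18, 95% interval -0.54 to 0.17, adjusted p = 0.378). Leaving out 1CT-A replicate 2 took MPC2 past a 2-fold fall (log2 fold change -1.03). The log2 ratio of MPC1 to MPC2 was higher in 1CT-A by 0.77 (exact permutation p = 0.1, two-sided), and the summed level went from 54.1 ± 4.78 to 32.7 ± 2.86 CPM (SD, n = 3). MPC2 shares exon sequence with DCAF6 on the opposite strand in GENCODE 44. DCAF6 had 769, 807 and 723 reads in 1CT and 825, 912 and 974 reads in 1CT-A. These reads are not scaled, and the 1CT-A libraries held more counts in total, so they are not to be read as a rise of DCAF6. Reads of the pair cannot be told apart if strand was not used. The same holds in GENCODE 44 for SLC16A3 with CSNK1D, PFKFB2 with YOD1, TPI1 with SPSB2, PDHA1 with MAP3K15, SLC2A12 with TBPL1 and ENO3 with PFN1. PGK1 with ATP7A and PFKFB4 with UCN2 share exon sequence on the same strand, where use of strand would not separate the reads. PFN1 had 6727 to 13410 reads in a library, far above ENO3.

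Pyruvate dehydrogenase turns pyruvate into acetyl-CoA, and the genes of its first component did not pass the test. PDHA1 had 96.4, 97.1 and 103 CPM in 1CT and 118, 110.0 and 105 CPM in 1CT-A (log2 fold change 0.13, 95% interval -0.044 to 0.30, adjusted p = 0.198), and PDHB had 56.3, 70.8 and 54.7 CPM in 1CT and 53.6, 57.5 and 67.8 CPM in 1CT-A (log2 fold change -0.060, 95% interval -0.30 to 0.18, adjusted p = 0.679). The value for PDHB turned to 0.066 without 1CT replicate 2 and to 0.010 without 1CT-A replicate 1. Outside the 38, DLD, the third component, had 77.1, 68.2 and 68.9 CPM in 1CT and 72.9, 74.3 and 72.5 CPM in 1CT-A and did not pass (log2 fold change -0.0035, 95% interval -0.17 to 0.17, adjusted p = 0.974), while DLAT and PDHX were called higher. DLAT, the acetyl transferase, had 29.9, 35.7 and 30.9 CPM in 1CT and 46.4, 53.2 and 50.3 CPM in 1CT-A (log2 fold change 0.59, SE 0.10, adjusted p = 1.93e-04), and PDHX, the protein that binds the third component, had 15.5, 20.4 and 16.6 CPM in 1CT and 24.9, 30.5 and 29.4 CPM in 1CT-A (log2 fold change 0.66, SE 0.13, adjusted p = 7.90e-04). DLAT, PDHX and DLD are named after their values were seen.

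Of the kinases that switch off pyruvate dehydrogenase, PDK1, a target of the hypoxia factor HIF-1, had 13.4, 11.2 and 10.9 CPM in 1CT and 13.4, 14.1 and 14.3 CPM in 1CT-A. It did not pass the test (log2 fold change 0.20, 95% interval -0.087 to 0.48, adjusted p = 0.230, edgeR). The low-level kinases fell. PDK2 had 2.25, 3.14 and 2.70 CPM in 1CT and 0.807, 1.49 and 0.714 CPM in 1CT-A (log2 fold change -1.46, SE 0.34, adjusted p = 0.00323), with 1 of 3 1CT-A libraries meeting the filter. PDK3 had 16, 13 and 27 reads in 1CT and 1, 0 and 3 reads in 1CT-A, 56 reads against 4 over all libraries of a line (log2 fold change -4.23, SE 0.63, adjusted p = 9.92e-05). Its ratio of CPM, 1CT over 1CT-A, was 20.1 with an exact 95% counting interval of 7.42 to 76.2. The fitted value of PDK3 lay between -5.35 without 1CT-A replicate 3 and -3.70 without 1CT-A replicate 2. PDK1 made up 70.2% ± 6.22 (SD, n = 3) of the counts of the 3 kinases in 1CT and 92.6% ± 1.91 in 1CT-A. The log2 ratio to PDK3 was higher in 1CT-A by 4.49 for PDK1 and by 2.79 for PDK2 (exact permutation p = 0.1 for each, two-sided). The size of both differences rests on the 1, 0 and 3 reads of PDK3 in 1CT-A and on the 0.5 added to counts. PDK2 and PDK3 reached the filter only through 1CT, so the change in the share of PDK1 has the same limit. PDK2 shares exon sequence with SAMD14 on the opposite strand, which had 18, 34 and 16 reads in 1CT and 2, 10 and 4 reads in 1CT-A. PDK4, a kinase induced by fasting and outside the 38, had 4.26, 2.41 and 2.31 CPM in 1CT and 0.807, 1.05 and 0.793 CPM in 1CT-A (log2 fold change -1.79, SE 0.35, adjusted p = 8.43e-04, named after its values were seen). PDK4 met the filter in 3 1CT libraries and 1 1CT-A library, so a difference was built into its being tested too. The phosphatase gene PDP1, which switches the enzyme back on, had 18.3, 19.2 and 12.3 CPM in 1CT and 13.0, 12.7 and 11.6 CPM in 1CT-A, with 1CT replicate 3 below the other 1CT libraries and below 2 of the 1CT-A libraries. PDP1 was called lower (log2 fold change -0.46, SE 0.16, adjusted p = 0.0276), and the call was lost without 1CT replicate 1 or 2 (adjusted p of 0.0938 and 0.112), without 1CT-A replicate 2 or 3 (0.0666 and 0.101) and in DESeq2 (0.0746).

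**Figure D5:**
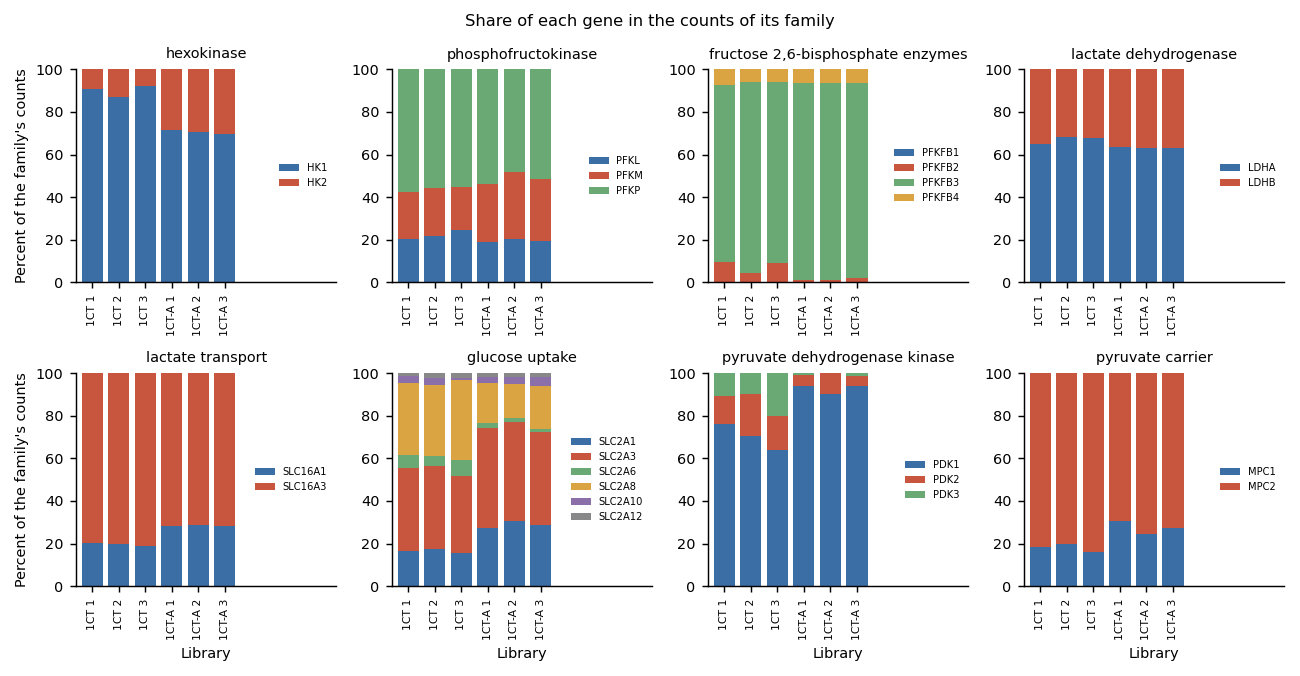
Share of each gene in the summed counts of its family, in percent, for each of the 6 libraries and 8 families. Colours stand for the genes named in each panel. HK2 goes from 10.0% to 29.3% of hexokinase counts, PDK1 from 70.2% to 92.6% of the kinase counts and SLC16A1 from 19.6% to 28.5% of the lactate transporter counts.

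Over the 14 pairs of related genes compared within a library, 9 had no overlap between the lines, each at the smallest exact p of 0.1 and at 0.156 after Benjamini-Hochberg adjustment over the 14 pairs, so none can pass 0.05 in this design. Among those 9, PFKFB3 to PFKFB2, PDK1 to PDK3 and PDK2 to PDK3 hold a gene that reached the filter only through 1CT. The other pairs differed by 0.039 for PFKP to PFKL (exact p = 0.7), -0.10 for PFKFB4 to PFKFB3 (exact p = 0.9), 0.18 for ALDOC to ALDOA (exact p = 0.6), 0.064 for ENO2 to ENO1 (exact p = 0.8) and -0.18 for PDHB to PDHA1 (exact p = 0.4), as differences of log2 ratios.

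Genes around glycolysis were read from lists of neighbouring pathways, with single genes chosen after their values were seen except for SLC16A7. The counts of each list are to be read against the 25.0% higher and 26.0% lower among all genes tested, or 31.4% and 23.4% among those of at least 10 CPM. The pentose phosphate pathway, which draws glucose 6-phosphate off to NADPH and ribose, had 6 of 7 genes called higher and none lower, with a median log2 fold change of 0.44 against -0.01 for all genes. TKT, the transketolase, had 427, 399 and 427 CPM in 1CT and 743, 625 and 717 CPM in 1CT-A (log2 fold change 0.70, SE 0.08, adjusted p = 8.80e-06). RPIA, the ribose 5-phosphate isomerase, had 21.3, 22.1 and 21.2 CPM in 1CT and 41.4, 40.3 and 42.0 CPM in 1CT-A (log2 fold change 0.90, SE 0.09, adjusted p = 3.41e-06). TALDO1, the transaldolase, rose from 309 ± 20.2 to 419 ± 4.48 CPM (SD, n = 3, adjusted p = 2.84e-04, edgeR). The gene that did not pass was PGLS (-0.22 on the log2 scale, adjusted p = 0.115). The shuttles that carry NADH electrons from glycolysis into mitochondria had 4 of 8 tested genes higher and none lower (median 0.30), among them GPD2 of the glycerol phosphate shuttle with 58.7, 63.5 and 53.3 CPM in 1CT and 93.6, 111 and 96.1 CPM in 1CT-A (log2 fold change 0.74, SE 0.09, adjusted p = 2.05e-05).

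The TCA cycle list had 5 of 16 genes higher and 1 lower, with 10 not passing (median 0.065), close to the share of higher calls among all genes. In the gluconeogenesis list 3 of 7 genes were tested and 1 was lower (median -0.32). Among the genes that control glucose uptake, 4 of 5 were tested, 1 was higher and 2 were lower (median -0.29), and TXNIP, which pulls glucose transporters off the membrane, did not pass (adjusted p = 0.608, edgeR). Among the 28 isozymes outside the 38 genes, 11 were tested, 3 were higher and 2 lower (median -0.022), and of the 7 partners and other complex subunits 2 were higher and 2 lower (median -0.0035). Among the lower ones, PDK4 and EMB reached the filter only through 1CT, with 1 1CT-A library passing for PDK4 and 0 for EMB.

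Genes named from the hypoxia list were also chosen after their values were seen. The list, which holds the HIF factors and known targets other than the 38 genes, had 19 of 21 genes tested, with 6 higher, 3 lower and 10 not passing (median -0.0059), where 25.0% of all genes were called higher and 26.0% lower. Of the others, the symbol ERO1L was not found in the libraries and EGLN3 was too low to be tested. Among the rises, CA9 met the filter through 1CT-A alone. HIF1A itself had 302, 278 and 263 CPM in 1CT and 246, 249 and 243 CPM in 1CT-A and was lower (log2 fold change -0.23, SE 0.07, adjusted p = 0.0127). VEGFA had 21.7, 39.8 and 29.0 CPM in 1CT and 51.9, 62.8 and 58.0 CPM in 1CT-A and was higher (log2 fold change 0.89, SE 0.16, adjusted p = 4.62e-04), while P4HA2 had 176, 179 and 185 CPM in 1CT and 94.7, 111 and 108 CPM in 1CT-A and was lower (log2 fold change -0.82, SE 0.08, adjusted p = 1.94e-06). CA9 had 0, 2 and 1 reads in 1CT and 12, 18 and 17 reads in 1CT-A, a ratio of 10.9 of 1CT-A over 1CT with an exact 95% counting interval of 3.52 to 54.9.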

How the data were processed

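RNA was made into libraries from 500 ng of total RNA with a kit the labels call Quant-Seq, a 3′ tag method. The study's methods describe the same experiment in microarray terms and with another extraction kit than the labels. The authors deposited raw counts, whole numbers of reads per gene symbol, 1 file per library, with 25737 entries for 24462 symbols. The submitters' processing notes name Bowtie2, edgeR and the build hg19, without versions or roles, and the counting tool and strand setting are not given in the sources used here. The 286 symbols entered more than once were summed. Because levels may depend on length if the libraries were not 3′ tags, genes were compared between lines rather than with each other, and shares and sums are of counts.

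The counts of all 6 libraries went into edgeR 4.0.16 (R 4.3.3), with filterByExpr at a minimum count of 10 (about 1.02 CPM in at least 3 libraries), TMM factors between 0.976 and 1.02, and a two-sided quasi-likelihood test with cell line as the single factor. The dispersion was 0.00733, and p-values were adjusted by Benjamini-Hochberg across the 12514 genes. CPM use library totals, without TMM. Ratios of gene pairs are log2 of counts plus 0.5 within a library and were compared by exact permutation tests. Counting intervals are exact and cover counting error only. Replicates differed beyond counting noise (chi-square per degree of freedom 3.11 to 9.00). The pairs that include 1CT replicate 3 had 7.54 and 9.00, and the other pairs had 3.11 to 4.56. The fit was tested on simulated data. As alternatives, scaling used the size factors of DESeq2 or the library size, the filter was dropped or raised to 10 counts in each library, the tool was DESeq2 1.42.0 or limma-voom (limma 3.58.1), a replicate block was added, each library was left out, the threshold was 0.01, and the ratio pseudocount was 1. Upper-quartile scaling was added after the data were seen.

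The members and lists were chosen with earlier results of these data known. The value of every library is given for members with at least a 2-fold call, the highest member of each step and both members of each pair. Genes of other lists are named from a 2-fold call and a mean of 10 CPM, and others are said to be chosen after their values were seen. Promoter windows are RefSeq on GRCh38.p14, and overlaps of exons are from GENCODE 44. No coordinates of the authors' build are given. A further list of a neighbouring pathway is not reported here.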

Additional observations from a re-analysis of the deposited data

How the results depend on the processing

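Of the 18 calls, 13 held without each library in turn, and 10 held under every alternative run, namely SLC2A1, SLC2A6, SLC2A8, HK2, PFKM, PGAM1, LDHA, LDHB, SLC16A3 and MPC2. The number of members called ran from 14 to 21, and 13 passed an adjusted p under 0.01. The number with at least a 2-fold change fell from 6 to 3 when at least 10 counts were required in every library, because PFKFB2, PDK2 and PDK3 then left the fit. The deviations of same-numbered libraries had correlations of -0.161, 0.220 and -0.139, and those of differently numbered libraries ran from -0.290 to 0.345. With 3 libraries per line these values cannot decide whether the numbers pair the samples. The fit with the replicate block called 17 members and lost SLC16A1 (adjusted p = 0.0766, edgeR). Scaling moved the median of all genes by at most 0.06. Values that changed sign did not pass the test in any setting. When single libraries were left out, log2 fold changes ran over -0.35 to 0.36 for SLC2A10 (also -0.022 with upper-quartile scaling), -0.21 to 0.018 for PFKL, -0.28 to 0.12 for ALDOC, -0.20 to 0.058 for GAPDH, -0.032 to 0.54 for ENO2 and -0.16 to 0.066 for PDHB. Differences of log2 ratios ran over -0.050 to 0.11 for PFKP to PFKL, -0.17 to 0.025 for PFKFB4 to PFKFB3, -0.023 to 0.29 for ALDOC to ALDOA and -0.12 to 0.38 for ENO2 to ENO1. The cause was not tested. GPI, TPI1 and ENO1 passed the test with library size scaling and with no filter, GPI and TPI1 in DESeq2, and TPI1 in limma-voom. At these depths members under about 1 CPM rest on a few reads.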
